A study of Homo sapiens with 6 samples.

Results

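Of the 7150 genes in the authors' deposited table, 7 carried a long noncoding RNA name: 4 intergenic (LINC00672, LINC00869, LINC02693 and LINC01347), 2 antisense (SLC44A3-AS1 and TP73-AS1) and 1 small nucleolar RNA host gene (SNHG32). They were chosen by name alone: a symbol that starts with LINC or SNHG and a digit, that ends in -AS or -IT with a digit or in -DT, or that is MALAT1, NEAT1 or GAS5. No divergent (-DT) or intronic (-IT) name was among the listed genes, and neither were MALAT1, NEAT1 and GAS5. The RNA came from MDA-MB-231 cells, a wild-type human triple-negative breast cancer line. The control group had 3 libraries, with no treatment and no vehicle named, and the shikonin group had 3, treated with this plant naphthoquinone at 0.5 µM over 24 h. Micromolar is a reading of the label, which has a lower-case m. The labels do not say whether libraries of a group are separate cultures, and the authors' p-values then cover no more than the spread of these samples, possibly technical.

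The table holds 1 row per gene, with a mean normalized count over all 6 libraries, a log2 fold change with its standard error, and an adjusted p. It holds no value per library, so library depths are unknown and no spread between single libraries can be shown. The authors marked positive fold changes "up", taken here to mean higher in shikonin. The table keeps only genes with adjusted p under 0.05 and fold over 1.5, so all 7 lncRNA genes were past the authors' thresholds by construction. The adjusted p-values imply about 14254 genes tested, of which 50.2% were listed, 25.5% as higher and 24.7% as lower. Of the markers of the cell line, VIM was listed (0.80 on the log2 scale, higher in shikonin in the authors' deposited table), EPCAM was higher (1.10), ERBB2 was 1.99-fold lower, and ESR1 and PGR were not listed. Of 4 luminal markers, KRT8, KRT18 and KRT19 were higher in the authors' deposited table, by 1.25, 1.67 and 1.48 on the log2 scale. Among 11 fixed markers of leukocytes, fibroblasts and endothelium, CD68, CD14 and PECAM1 were listed, all higher, with log2 fold changes of 0.66, 2.16 and 2.03 in the authors' deposited table. The others, among them PTPRC, CD3E and COL1A1, were not listed. Their part in the results below was not tested.

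Long noncoding RNAs are transcripts that are spliced and processed much like messages but are not known to be translated into a stable protein. Intergenic ones lie between coding genes, and antisense ones run across or beside a coding gene on the opposite strand. Small nucleolar RNA host genes carry short guide RNAs in their introns. These guides are released when the intron is removed and then direct the chemical modification of ribosomal RNA, while the spliced host transcript is often short-lived and degraded by nonsense-mediated decay, the pathway that removes messages with early stop codons.

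SNHG32 is the host of the box C/D small nucleolar RNAs SNORD48 and SNORD52, which are shown because they are what its introns are known to yield. The capitals mark the C box (searched as TGATGA, first match) near the 5′ end and the D box (CTGA, last match) near the 3′ end, the sequence pair that the snoRNA proteins bind. The sequences are those of GENCODE 29 (GRCh38), on the plus strand of chromosome 6.
SNORD48 (chr6:31835263-31835326): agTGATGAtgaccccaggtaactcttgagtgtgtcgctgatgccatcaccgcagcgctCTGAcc
SNORD52 (chr6:31837076-31837142): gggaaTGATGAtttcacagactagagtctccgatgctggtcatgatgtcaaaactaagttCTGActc
These 64 and 67 base RNAs have no row of their own in the table, so they were not measured apart from their host. Annotated exons of SNHG32 cover 39 bases of SNORD48 and all 67 of SNORD52. The sources used here do not say how reads in these bases were assigned. All 18 of the 50-base windows of SNORD52 also occur in an annotated host transcript, so in that isoform it is part of an exon.

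The host RNA of SNHG32 was higher in shikonin. The authors' deposited table gives a mean normalized count of 3107, which with the fold implies a mean of 976 in control and 5238 in shikonin. The log2 fold change in the authors' deposited table was 2.42 ± 0.20 (standard error, 3 libraries a group), a 5.37-fold difference (95% interval 4.07 to 7.08; adjusted p = 6.98e-31). SNHG32 was the most abundant of the 7 genes by mean normalized count, at percentile 89.6 of all listed genes, and its interval was narrower than those of LINC00672 and SLC44A3-AS1, which had folds of like size. The gene lies on chromosome 6 from 31834608 to 31839766, on the plus strand. Older annotation calls it C6orf48 and types it as protein coding: 9 of its 11 transcripts in GENCODE 29 are lincRNA and 2 are coding.

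SNHG32 sits in the class III region of the major histocompatibility complex, beside the inducible HSP70 genes. HSPA1B, which encodes an HSP70 chaperone, ends 4353 bp before SNHG32 and was 22.8-fold higher by the authors' deposited table (13.6 to 38.3). HSPA1L, another HSP70 gene on the opposite strand, was 53.7-fold higher by the authors' deposited table (29.7 to 97.1). By the authors' deposited table EHMT2, a histone H3 lysine 9 methyltransferase gene, was 2.99-fold higher (2.14 to 4.18), and LSM2, which encodes an RNA-binding ring protein, 1.67-fold (1.32 to 2.11). Of the 8 coding genes within 50 kb, 4 were listed, all higher, beside 50.2% of all tested genes listed and 25.5% listed as higher. HSPA1A, VARS, NEU1 and SLC44A4 were not listed, which cannot be read as no change. HSPA1B and HSPA1L each had a mean normalized count of 159, with implied control means of 13.4 and 5.83. The sources used here do not say how reads that fit more than 1 HSP70 gene were assigned. Sequence sharing among the HSP70 genes was not searched. SNHG32 lay between its neighbours: its log2 fold change was below those of both listed HSP70 genes and above those of LSM2 and EHMT2.

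**Figure D1:**
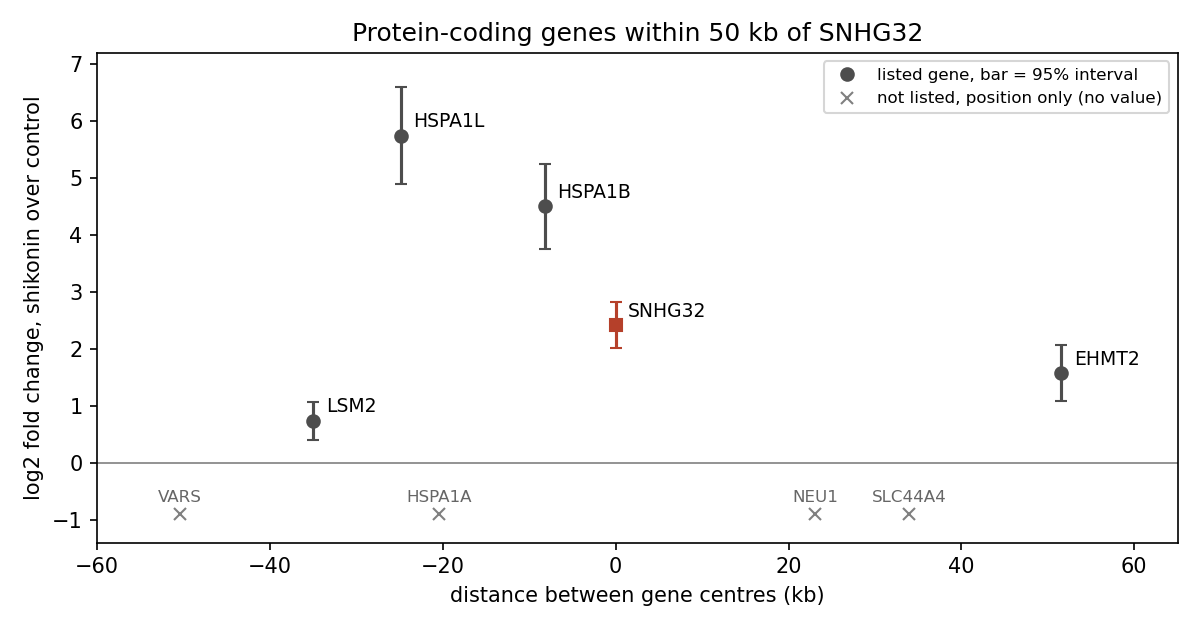
Log2 fold change (shikonin over control, authors' values) of SNHG32 (square) and of the protein-coding genes within 50 kb (circles), against the distance between gene centres in kb, with 95% intervals as bars. HSPA1L and HSPA1B stand above SNHG32 (2.42), LSM2 and EHMT2 below it, and crosses under the zero line mark the position of the 4 coding genes that are not listed and have no value.

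GENCODE 29 also holds a transcript, AL671762.1, that runs through both HSPA1B and SNHG32 on the same strand. It shares 920 exon bases with HSPA1B (36.5% of that gene's exon bases) and 418 with SNHG32 (23.2%). It was not listed. Reads in these 418 bases fit either gene, and the sources used here do not say how the authors assigned them. The remaining exon bases of SNHG32 showed next to no sharing: apart from AL671762.1, only SNORD52 held any of its 50-base windows.

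The promoter of SNHG32 is shown because its start carries the pyrimidine tract that is typical of snoRNA host genes and ribosomal protein genes, whose messages begin with such a tract. The window is RefSeq's (GRCh38.p14), from 250 bases before to 50 after the annotated start, on the plus strand, and the capitals mark the run of C and T bases that covers the start. This start, at 31834916, lies 308 bases inside the GENCODE 29 gene span given above, whose most upstream transcripts begin earlier, so the bases before those were not searched.
SNHG32 promoter (chr6:31834666-31834965): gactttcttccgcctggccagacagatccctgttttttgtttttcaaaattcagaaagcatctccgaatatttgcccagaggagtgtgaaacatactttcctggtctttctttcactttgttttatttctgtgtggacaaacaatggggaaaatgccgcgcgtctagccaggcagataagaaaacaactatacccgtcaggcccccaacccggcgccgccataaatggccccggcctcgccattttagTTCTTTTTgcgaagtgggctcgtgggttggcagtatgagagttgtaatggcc
The run is 8 bases long, and 4.72% of 35116 promoters in the same table have a run at least as long over the start. The heat shock element pairs GAANNTTC and TTCNNGAA were searched on both strands and had no match in this window, where 6.77% and 7.74% of all promoters hold one. The antioxidant response core TGACNNNGC (13.3% of promoters) and the C/EBP-ATF site TGATGNAA (3.62%) had no match either, which says only that these letters are not in this window.

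The 4 intergenic genes were split, 2 higher and 2 lower, where 50.8% of all listed genes were higher. Their log2 fold changes ran from -2.82 to 2.54, with a median of -0.24. The median over all listed genes was 0.60. No listed gene lies within 1.5-fold of no change, so the gap between these medians is not read as a shift. LINC00672 was higher: its mean normalized count of 26.8 implies 7.86 in control and 45.7 in shikonin, and the authors' deposited table gives a log2 fold change of 2.54 ± 0.57 (5.81-fold, 2.69 to 12.5; adjusted p = 2.26e-05). It lies on chromosome 17 (38925168 to 38929384, plus strand) as a single transcript of 2 exons, 3398 bp past the end of LASP1, which encodes an actin-binding protein. Neither LASP1 nor FBXO47, the coding genes within 50 kb, was listed. LINC00869, on chromosome 1 (149606334 to 149679523, plus strand), was higher by a small margin. Its implied means were 144 in control and 240 in shikonin, and its log2 fold change in the authors' deposited table was 0.74 ± 0.29 (1.67-fold, 1.13 to 2.47; adjusted p = 0.0179). The lower end of that interval is below the 1.5-fold threshold, and with the implied totals of both groups, summed over the listed genes only, set equal the value was 0.35, under it. Of the coding genes within 50 kb, NBPF19, a member of a primate-expanded family of repeats, was 4.87-fold lower by the authors' deposited table (2.04 to 11.6), and PPIAL4C was not listed.

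LINC02693 was lower and was the more abundant of the falling intergenic genes, with implied means of 996 in control and 429 in shikonin. Its log2 fold change in the authors' deposited table was -1.22 ± 0.16, a 2.32-fold difference (1.87 to 2.89; adjusted p = 3.18e-13). It lies on chromosome 17 (21428381 to 21574517, minus strand), is called C17orf51 in older annotation, and has 11 noncoding transcripts and 1 coding one. The nearest coding gene, KCNJ12, which encodes an inward rectifier potassium channel, went the other way, 24.9-fold higher (7.85 to 78.7) from a mean of only 22.7 normalized counts in the authors' deposited table. LINC01347 had the largest fold of the 7 genes and the least certain one. Its implied means were 37.6 in control and 5.31 in shikonin, and its log2 fold change in the authors' deposited table was -2.82 ± 0.79 (7.08-fold lower, 2.41 to 20.9; adjusted p = 8.73e-04). It lies on chromosome 1 (243056307 to 243101744, minus strand), 22684 bp from CEP170, a centrosomal protein gene that was 2.77-fold lower by the authors' deposited table (2.05 to 3.74).

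**Figure D2:**
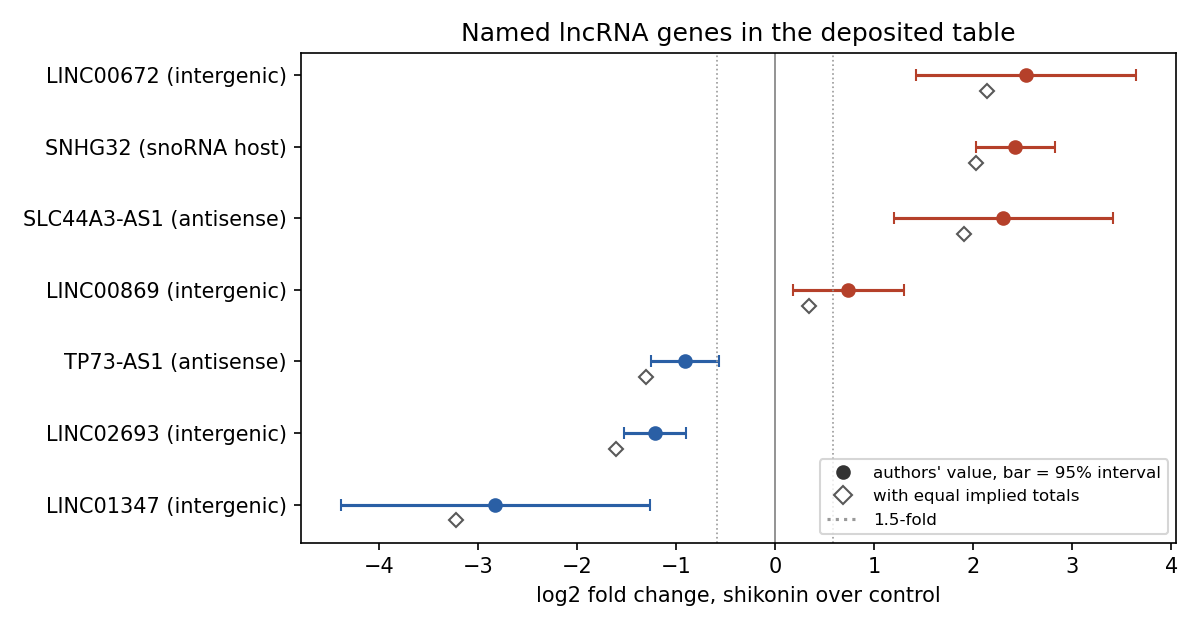
Log2 fold change (shikonin over control) of the 7 named lncRNA genes with 95% intervals from the authors' standard errors (circles and bars), and the same value with equal implied totals (diamonds); dotted lines mark 1.5-fold. The 4 higher genes run from 0.74 to 2.54 and the 3 lower ones from -0.91 to -2.82, and the diamond of LINC00869 alone falls inside the dotted lines.

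Both antisense genes changed, in opposite directions. SLC44A3-AS1 was higher, with implied means of 8.76 in control and 43.3 in shikonin and a log2 fold change, by the authors' deposited table, of 2.31 ± 0.56 (4.94-fold, 2.30 to 10.6; adjusted p = 1.13e-04). It spans 241613 bases of chromosome 1 (94613814 to 94855426, minus strand) with 19 transcripts. Its namesake SLC44A3, which encodes a choline transporter-like protein, overlaps 35085 bases of that span on the other strand but shares no exon base with it, and was not listed. CNN3, an actin-binding calponin gene 41523 bp away, was 1.67-fold higher by the authors' deposited table (1.44 to 1.95). TP73-AS1 was lower, with implied means of 641 in control and 342 in shikonin and a log2 fold change, by the authors' deposited table, of -0.91 ± 0.18 (1.88-fold lower, 1.48 to 2.38; adjusted p = 8.40e-07). It lies on chromosome 1 from 3735511 to 3747373 on the minus strand, with 29 transcripts.

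TP73, the p53 family transcription factor gene on the other strand of that locus, was also lower, with implied means of 128 in control and 54.2 in shikonin. Its log2 fold change in the authors' deposited table was -1.24 ± 0.36 (2.37-fold lower, 1.46 to 3.84; adjusted p = 0.00111). The intervals of TP73 and TP73-AS1 overlap, and the difference between their folds was not tested. The pair shares 633 exon bases on opposite strands, and 5.17% of the 50-base windows of TP73-AS1 occur in reverse in TP73 transcripts. The sources used here do not say whether the counting kept strand, so reads in the shared part cannot be told apart. A second coding gene across the locus, CCDC27, was not listed, and SMIM1, a red cell membrane protein gene 25388 bp away, was 7.57-fold higher by the authors' deposited table (2.10 to 27.2) from a mean of 13.8.

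**Figure D3:**
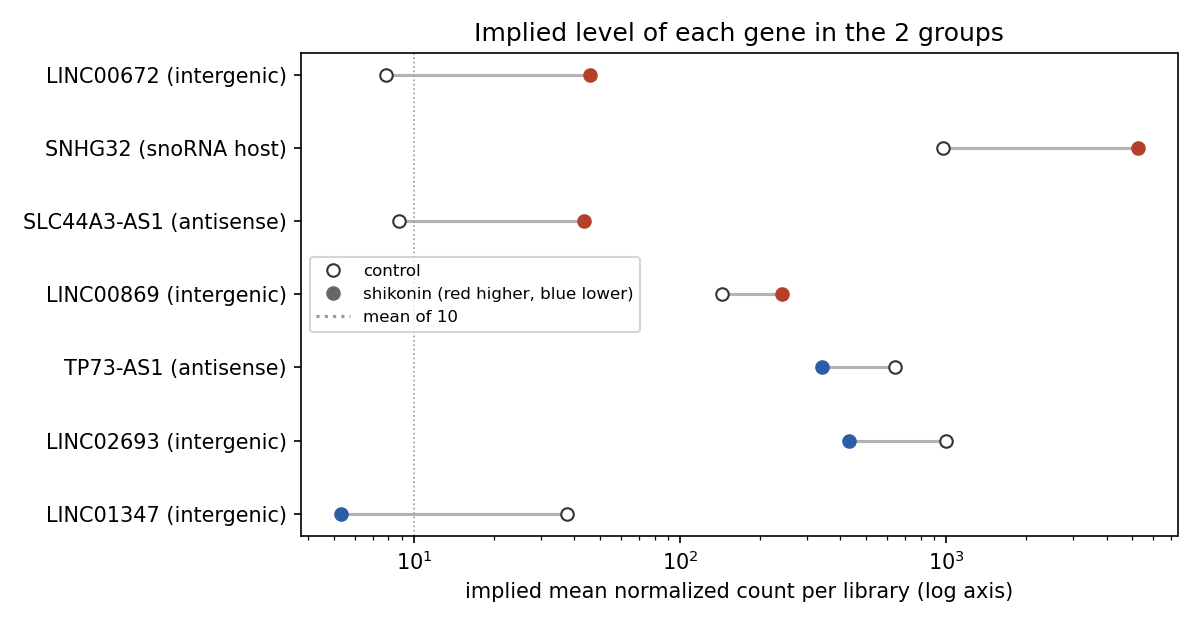
Implied mean normalized count per library (log axis) in control (open circles) and shikonin (filled circles, red where higher and blue where lower) for the 7 genes, solved from the authors' mean and fold. SNHG32, LINC02693, TP73-AS1 and LINC00869 stay above the dotted line at 10 in both groups, while LINC00672 and SLC44A3-AS1 lie under it in control and LINC01347 in shikonin.

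The genes with the lowest levels had the widest intervals. LINC00672, SLC44A3-AS1 and LINC01347 had mean normalized counts of 21.5 to 26.8, at or below percentile 6.04 of listed genes, and standard errors of 0.56 to 0.79, against a median of 0.19 over all listed genes. Their folds of 4.94 to 7.08 have intervals that reach down to 2.30 to 2.69. At least 2-fold differences were found for 3 genes higher (LINC00672, SNHG32 and SLC44A3-AS1) and 2 lower (LINC02693 and LINC01347), where 16.4% and 14.6% of all tested genes, and 32.7% and 29.2% of the listed genes, were at least 2-fold higher and lower. The members are all listed genes, so nothing is read from the shares of tested genes. With a mean of at least 50 required, 2 higher (SNHG32 and LINC00869) and 2 lower (LINC02693 and TP73-AS1) were left.

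LINC01347 shares stretches of exact sequence with other genes. The listed ones that share at least 1% of its 50-base windows were lower, as LINC01347 was. Of its 50-base windows, 64.9% also occur in transcripts of other genes, and 33.4% of its 100-base windows do. A total of 25 genes share at least 1% of its 50-base windows, and 8 of these were listed, all lower. Their log2 fold changes ran from -2.30 to -1.06, with a median of -1.78. Of all tested genes 50.2% were listed and 24.7% were listed as lower, and 50.8% of listed genes were higher. Whether the unlisted relatives were tested is not known. Below the 1% cut, chosen after the data were seen, PIGP (0.08% of windows) was higher at 0.93 and TTLL7 (0.20%) lower at -0.84. AL669831.1, which shares 38.6% of the windows, had a log2 fold change, by the authors' deposited table, of -1.29 ± 0.22, from a mean normalized count of 241. FAM157A (25.1% of windows) stood at -1.23 ± 0.20 and AL732372.2 (12.1%) at -2.19 ± 0.36 in the authors' deposited table. The sources used here do not state how reads with several matches were treated. The values of LINC01347 and the 8 listed genes above the cut may therefore not be independent, and that of LINC01347 is uncertain. The stretch below is shown because it is the longest that LINC01347 shares whole with 7 of the 8 listed relatives. It lies in exon 18, the last, on the minus strand of chromosome 1 (GENCODE 29, GRCh38).
LINC01347 bases 3110 to 3179 (chr1:243056969-243057038): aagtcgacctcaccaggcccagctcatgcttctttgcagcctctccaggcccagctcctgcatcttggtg
A sequencing read that falls within these 70 bases cannot be placed in 1 gene by its sequence.

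**Figure D4:**
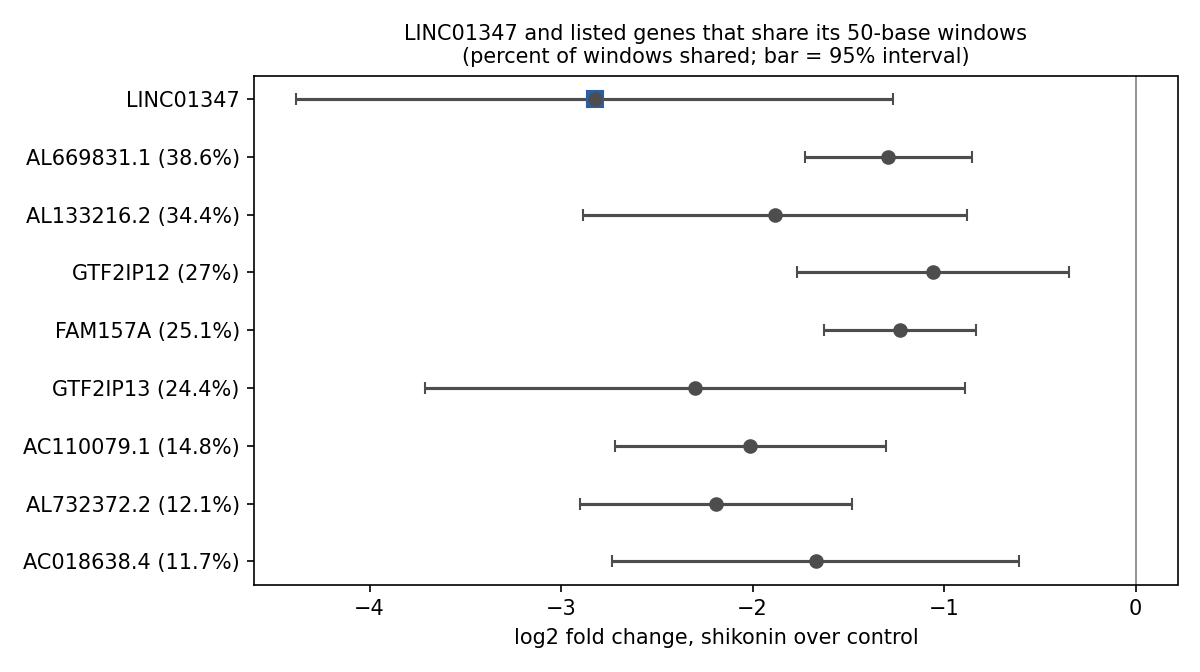
Log2 fold change (shikonin over control, authors' values, bars are 95% intervals) of LINC01347 (square) and of the 8 listed genes that share at least 1% of its 50-base windows, with the percent shared beside each name. All 9 values lie below 0, with LINC01347 at -2.82 and the others between -2.30 and -1.06.

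LINC00869 also shares sequence with other genes, in part through copies and in part through overlap, with a different picture. Its older name is FAM91A2, and 49.4% of its 50-base windows occur in other genes. The most are in FAM91A2P (26.2%) and FAM91A3P (17.5%), neither of them listed. FAM91A2P lies within LINC00869 on the same strand and shares 2410 exon bases with it, so this share reflects overlap at the same locus. AC243772.3 (8.31%), also not listed, overlaps LINC00869 on the opposite strand by 798 exon bases. FAM91A1, the coding gene among these FAM91A names, which works in vesicle tethering at the Golgi, holds 7.05% of the windows. FAM91A1 was 1.83-fold lower by the authors' deposited table (1.46 to 2.31) from a mean normalized count of 2221, while LINC00869 was higher from 192. The other 5 genes shared less: 18.7% of windows for SNHG32, 8.23% for TP73-AS1, and 1.67% to 2.44% for LINC00672, LINC02693 and SLC44A3-AS1.

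All 7 genes were typed as something other than lncRNA in GENCODE 29: SNHG32, LINC00672 and LINC02693 as protein coding, and the other 4 as kinds of transcribed pseudogene. RefSeq, matched by symbol for 5 of them, types all 5 as lncRNA. GENCODE 29 has 3298 genes with a name of these kinds and a lncRNA type, and 0 of them were listed. Of 44 with such a name and a protein-coding or pseudogene type, 10 were listed, or 22.7%. Over the whole annotation, 2 of 16054 lncRNA genes were listed, against 6920 of 19951 protein-coding genes (34.7%) and 218 of 15224 pseudogenes (1.43%). The names absent here include 26 snoRNA host genes, 75 divergent and 132 intronic genes under their GENCODE 29 names. The sources used here do not say whether such genes were counted and tested, so a missing name cannot be read as an unchanged RNA. A further 56 well-known lncRNA genes outside these name patterns, such as H19, HOTAIR, TUG1 and NORAD, and 20 microRNA host genes such as MIR17HG and MIR22HG were looked up, of which 52 and 19 were found by name in GENCODE 29, and none was listed.

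Transcript length was compared because direction followed it over all listed genes, with a Spearman's rho of -0.70 between the longest basic transcript and log2 fold change over 7142 genes. Over the 7 lncRNA genes rho was -0.39. These are descriptions across genes that share the same libraries. SNHG32, at 748 nt, fell in the shortest of 10 equal length groups of listed genes (207 to 1119 nt), of which 95.8% were higher. LINC02693, at 7904 nt, fell in a length group (6425 to 8252 nt) of which 6.86% were higher. SLC44A3-AS1 (5956 nt) and LINC00869 (5734 nt) were higher within a group of which 11.2% were, and LINC00672 (3692 nt) was higher within a group of which 30.8% were. TP73-AS1 (3525 nt) and LINC01347 (3841 nt) fell in that same group and were lower. The lengths are uncertain, since the transcripts of SLC44A3-AS1 run from 176 to 5956 nt and those of LINC00869 from 323 to 5734 nt. Those of LINC02693 run from 402 to 7914 nt, of TP73-AS1 from 597 to 6358 nt and of LINC01347 from 355 to 3841 nt. With the median length over all transcripts of a gene, rho was -0.11 over the 7 genes and -0.28 over all listed genes.

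**Figure D5:**
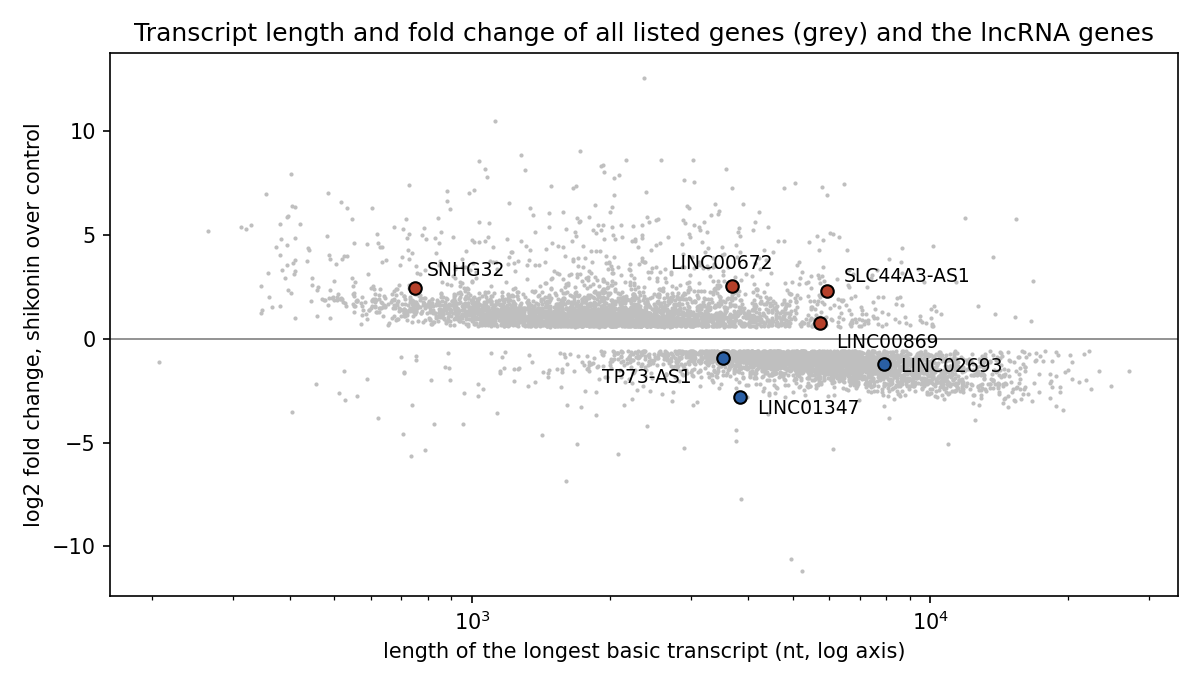
Length of the longest basic transcript (nt, log axis) against log2 fold change (shikonin over control, authors' values) for all listed genes with an annotation (grey) and the 7 lncRNA genes (circled, red higher and blue lower). SNHG32 lies among the short, mostly higher genes, LINC02693 among the long, mostly lower ones, and SLC44A3-AS1 and LINC00869 lie above the long genes that were mostly lower; the empty band around 0 is the 1.5-fold threshold of the table.

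Genes for proteins of snoRNA complexes, RNA decay and nuclear bodies were listed in both directions. The values are RNA levels, and any action of these proteins on the lncRNA genes above was not tested. Of 18 genes of snoRNA-protein complexes and their assembly, 8 were higher and 2 lower. Of all tested genes, 25.5% were listed as higher and 24.7% as lower. Direction followed transcript length over all listed genes, with a Spearman's rho of -0.70 for the longest basic transcript and -0.28 for the median length. The counts for this and the later lists take no account of length. FBL, the methyltransferase that acts with box C/D guides such as SNORD48, was higher by 1.31 ± 0.16 on the log2 scale in the authors' deposited table. SNU13 and NOP56, further box C/D core proteins, stood at 0.98 ± 0.13 and 0.64 ± 0.12, and NOP10 and NHP2, of the box H/ACA complex, at 1.56 ± 0.16 and 1.20 ± 0.17 in the authors' deposited table. Assembly factors were listed in both directions: PIH1D1 (1.62), RUVBL2 (1.21) and ZNHIT3 (1.11) higher, and NAF1 (-0.60) and ZNHIT6 (-0.97) lower, in the authors' deposited table. With equal implied totals 6 of the 8 stayed above 1.5-fold.

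Of 18 nonsense-mediated decay genes, 8 were lower and 3 higher, beside 24.7% of all tested genes listed as lower and 25.5% as higher. SMG1, the kinase that phosphorylates UPF1, was lower by the most, at -2.30 ± 0.25 on the log2 scale in the authors' deposited table. UPF2 stood at -1.49 ± 0.24, SMG6, the endonuclease of the pathway, at -1.22 ± 0.14, and the helicase gene UPF1 at -0.99 ± 0.14 in the authors' deposited table. The higher ones, MAGOH (1.49), MAGOHB (1.40) and EIF4A3 (0.63), encode parts of the exon junction complex, and with equal implied totals EIF4A3 was at 0.24, under 1.5-fold. Of 21 genes of the nuclear exosome and its adaptors, 8 were higher and 4 lower. Of the 6 ring subunits 5 were higher in the authors' deposited table, with EXOSC8 at 1.28 ± 0.16 and EXOSC5 at 1.25 ± 0.18 on the log2 scale, and EXOSC6 was lower at -0.95 ± 0.16. Of the cap subunits only EXOSC1 was listed (1.22 ± 0.15 in the authors' deposited table), and EXOSC2 and EXOSC3 were not. The nuclease DIS3 (-0.79 ± 0.17) and the adaptor ZFC3H1 (-1.44 ± 0.22) were lower in the authors' deposited table. With equal implied totals 4 of the 8 higher exosome genes stayed above 1.5-fold, and all 4 lower ones stayed below.

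Paraspeckles are nuclear bodies built on NEAT1, and nuclear speckles are where MALAT1 gathers. Of 20 paraspeckle protein genes, 2 were higher (RBM14 at 0.98 and PSPC1 at 0.63 on the log2 scale in the authors' deposited table) and 4 lower, TARDBP, SMARCA4, FAM98A and HNRNPR, at -0.86 to -0.61. With equal implied totals PSPC1 was under 1.5-fold, at 0.24. Core members NONO and SFPQ were not listed. Of 14 nuclear speckle genes, 3 were higher, 2 of them above 1.5-fold with equal implied totals (SRSF3 was at 0.51), and 4 were lower. CLK1, a kinase of splicing factors, stood at 3.17 ± 0.15 and SRSF7, a splicing factor gene, at 2.16 ± 0.14 in the authors' deposited table. The speckle scaffold genes SON and SRRM2 stood at -1.24 ± 0.19 and -1.25 ± 0.23 in the authors' deposited table. Against the 50.2% of all tested genes that were listed, the share listed was 55.6% for the snoRNA complexes, 61.1% for decay, 57.1% for the exosome, 50% for speckles and 30% for paraspeckles.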

How the data were processed

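Total RNA of MDA-MB-231 cells was made into libraries with the NEBNext Ultra kit, per the labels' protocols. RNA selection, strandedness, read counter and annotation: not given in the sources used here. Tools listed in the submitters' processing notes are DESeq2, fastp and HISAT2 2.0.5, with build hg38. Per the file headers, the authors' deposited table gives the mean normalized count (a signal averaged over all libraries after size factors), the log2 fold change with standard error, the Wald score, and p-values with their adjusted values. The sign matched the authors' mark in all 7150 genes.

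The planned edgeR test, replicate comparison and leave-one-out fits need values for each sample, which the table does not hold, and were left out. Group means were solved from mean and fold with equal weight of 3 and 3 libraries, and 95% intervals are normal intervals from the standard error. The equal-totals alternative subtracts 0.39, the log2 ratio of the implied totals, from each log2 fold change; these totals cover only the listed genes, which were chosen for having changed, and are not library totals. How many genes were tested was worked out from p, rank and adjusted p at ranks 2 to 300, a step tested on simulated data. GENCODE 29 gave positions, types, transcripts and lengths for 7142 genes by identifier. Windows of 50 and 100 bases of each member's transcripts were searched in all GENCODE 29 transcripts on both strands. All 7 members are named, as the naming rule allows; neighbours are the coding genes within 50 kb, and sequence relatives are the listed genes that share at least 1% of windows. Members and lists were chosen with earlier results of these data known. The name-matching and median-length alternatives, the neighbours and the sequence relatives were chosen after the data were seen. Python 3.11.15, pandas 2.3.3 and scipy 1.17.1 were used.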

Additional observations from a re-analysis of the deposited data

How the results depend on the processing

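No paired analysis was possible because the table holds no per-sample values, which also kept edgeR, filters on per-library counts, the replicate block and leaving out libraries from being run. Against 4 members higher and 3 lower, a mean of at least 50 normalized counts, or an implied mean of 10 or more in each group, left 2 higher and 2 lower, and turned the median log2 fold change of the antisense pair from 0.70 to -0.91, since only TP73-AS1 was left. Matching GENCODE 29 or current symbols as well, an alternative chosen after seeing the data, gave 9 higher and 5 lower and an antisense median of 1.23. Of the 7 genes so added, 3 had mean normalized counts below 50. Among all listed genes 50.8% were higher. With equal implied totals the snoRNA host value was 2.03 and the antisense median 0.31, and LINC00869 alone left the 1.5-fold range, at 0.35. With both genes at least 2-fold required, 0 antisense members had a listed partner of the same sign, against 1. With the median transcript length, rho was -0.11 over the members and -0.28 over all listed genes. No member changed direction under equal totals. Depth is unknown.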

Other observations

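Another 7 listed genes carry a lncRNA name of these kinds in GENCODE 29 or in the current symbol table. In the authors' deposited table they have another symbol, or none. Of these, 5 were higher and 2 lower, where 50.8% of all listed genes were higher. KRT10-AS1, listed as TMEM99, stood at 2.35-fold higher by the authors' deposited table (1.79 to 3.07, DESeq2 adjusted p = 2.18e-09), with implied means of 271 in control and 636 in shikonin. KRT10, the keratin gene it is named for, was 2.61-fold higher by the authors' deposited table (2.02 to 3.37); the genes overlap on opposite strands of chromosome 17, and reads there cannot be told apart without strand. NCBP2-AS2, which now bears a coding name, was 2.02-fold higher by the authors' deposited table (1.46 to 2.79). LINC01145, which shares 1.88% of the 50-base windows of LINC00869, was 1.86-fold lower (1.40 to 2.49) and LINC00680, listed as GUSBP1, 1.82-fold lower by the authors' deposited table (1.26 to 2.64). SRP54-AS1, LINC03006 and LINC00431 were listed as higher from mean normalized counts of 13.0, 4.95 and 4.48, too low for a firm fold: the interval for LINC00431 in the authors' deposited table runs from 2.66 to 286.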
